A study of Mus musculus with 6 samples.

Results

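The Myc and Max network was described through 9 genes, Myc, Mycn, Mycl, Max, Mxd1, Mxd3, Mxd4, Mnt and Mga, which were taken by their symbols from the 28584 gene symbols measured. All 9 were found. The RNA came from mouse embryonic stem cells (mESCs) of a single line, made from a C57BL/6 and 129S6 blastocyst, which had been grown with serum and LIF on feeder cells (mouse embryonic fibroblasts stopped from dividing with mitomycin C). The cells were then kept for 10 passages in the same serum medium with 1000 U/mL leukemia inhibitory factor (LIF-ESCs), with 10 ng/mL oncostatin M in place of LIF (OSM-ESCs), or with neither cytokine (-LIF-ESCs). Levels below are given as without cytokine, with LIF and with OSM. Each of these 3 groups had 2 biological replicates, whose poly(A) RNA was sequenced in bulk, with 20712941 to 28994417 reads per library as recovered from the values.

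Myc, Mycn and Mycl encode transcription factors that drive growth and cell division, and each binds DNA only as a dimer with Max. Max also dimerizes with the Mxd proteins, Mnt and Mga, which bring repressor complexes to the same DNA sites, so the network is usually described as a competition for Max. In mESCs, LIF and OSM activate Stat3 through the common receptor subunit gp130, Myc is a known target of Stat3, and Mga belongs to a Polycomb complex (PRC1.6) known for silencing germline genes.

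The DNA site of Max dimers is the E-box CACGTG, which reads the same on both strands. It was searched in RefSeq promoters of GRCm38.p6, each running from 250 bases before to 50 bases after a transcription start, and 7.15% of 32851 promoters held it. A promoter was found for 8 of the 9 genes, and 3 of these 8, those of Max, Mnt and Mxd4, held the E-box. The variant CACGCG, searched on both strands (CGCGTG on the other), was in 9.27% of all promoters and in those of Mga and Mycl. The stretches of 60 bases around these matches are shown because they are the network's own binding letters in its own promoters, with the matched letters in capitals. They are Max at chr12:76962219-76962278 (minus strand), Mnt at chr11:74830774-74830833 (plus strand), Mxd4 at chr5:34187897-34187956 (minus strand), Mga at chr2:119897180-119897239 (plus strand) and Mycl at chr4:122995884-122995943 (plus strand).
Max: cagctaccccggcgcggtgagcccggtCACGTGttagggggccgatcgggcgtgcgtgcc
Mnt: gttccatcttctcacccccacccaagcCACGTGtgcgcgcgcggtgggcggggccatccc
Mxd4: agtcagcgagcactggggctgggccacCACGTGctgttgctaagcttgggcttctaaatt
Mga: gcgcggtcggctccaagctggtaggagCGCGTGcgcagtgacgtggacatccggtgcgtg
Mycl: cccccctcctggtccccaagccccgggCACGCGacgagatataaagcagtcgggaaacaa
Counted from the transcription start, the first base of the match lies at -3 in Max, -20 in Mycl, -21 in Mga, -123 in Mnt and -219 in Mxd4. A match is a description of the letters only, and binding was not measured.

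The summed levels of cell type markers differed between the groups. Some of the marker lists share a gene (Pdgfra and Hand1). The summed TPM of 10 embryonic stem cell markers was 5634 to 5645 without cytokine, 7425 to 7506 with LIF and 6944 to 6973 with OSM. That of 8 surface ectoderm and trophoblast markers was 2384 to 2402, 58.8 to 60.4 and 70.6 to 75.7, and that of 15 fibroblast markers was 104 to 110, 439 to 445 and 612 to 615, in the same order. Mesoderm and primitive streak markers summed to 101 to 102, 6.95 to 8.06 and 7.57 to 8.64 TPM, primitive endoderm markers to 43.3 to 43.6, 115 to 116 and 94.0 to 94.8, and neural markers to 95.4 to 96.3, 83.3 to 85.0 and 89.4 to 92.3, and no marker measured was at 0 in both libraries of a group. The part of these markers in the differences below was not tested, and in bulk RNA fewer cells of a type and less RNA per cell cannot be told apart. TPM (a share of transcripts) is a level corrected for gene length and scaled to the same total in each library, and over all genes tested the median log2 fold change was 0.17 with LIF and 0.18 with OSM against -LIF-ESCs. Rescaling the libraries by their median ratio took this to 0.01 for both, and rescaled values and counts are given beside those they change most. A gene is said below to have risen, fallen or passed the test where its adjusted p in limma was under 0.05.

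Against -LIF-ESCs, 8 of the 9 genes rose and 1 fell with LIF, while 7 rose, 1 fell and 1 did not pass the test with OSM. Among all genes tested, 42.2% rose and 25.9% fell with LIF, and 42.9% rose and 25.4% fell with OSM. Mxd1 met the minimum of 1 TPM only in the LIF and OSM libraries, so it could hardly have been tested without being higher there, and without it 7 of 8 and 6 of 8 genes rose. After rescaling, 6 of the 9 rose with LIF and 7 with OSM, or 5 and 6 of the 8 without Mxd1, against 34.4% and 34.3% of all genes tested. A log2 fold change of at least 1 was reached by Myc, Mycn and Mga in both comparisons, against 13.3% of all genes tested that rose by as much with LIF and 14.2% with OSM, and these genes also passed that limit after rescaling. Both comparisons use the same -LIF-ESC libraries, so they are not independent.

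**Figure D1:**
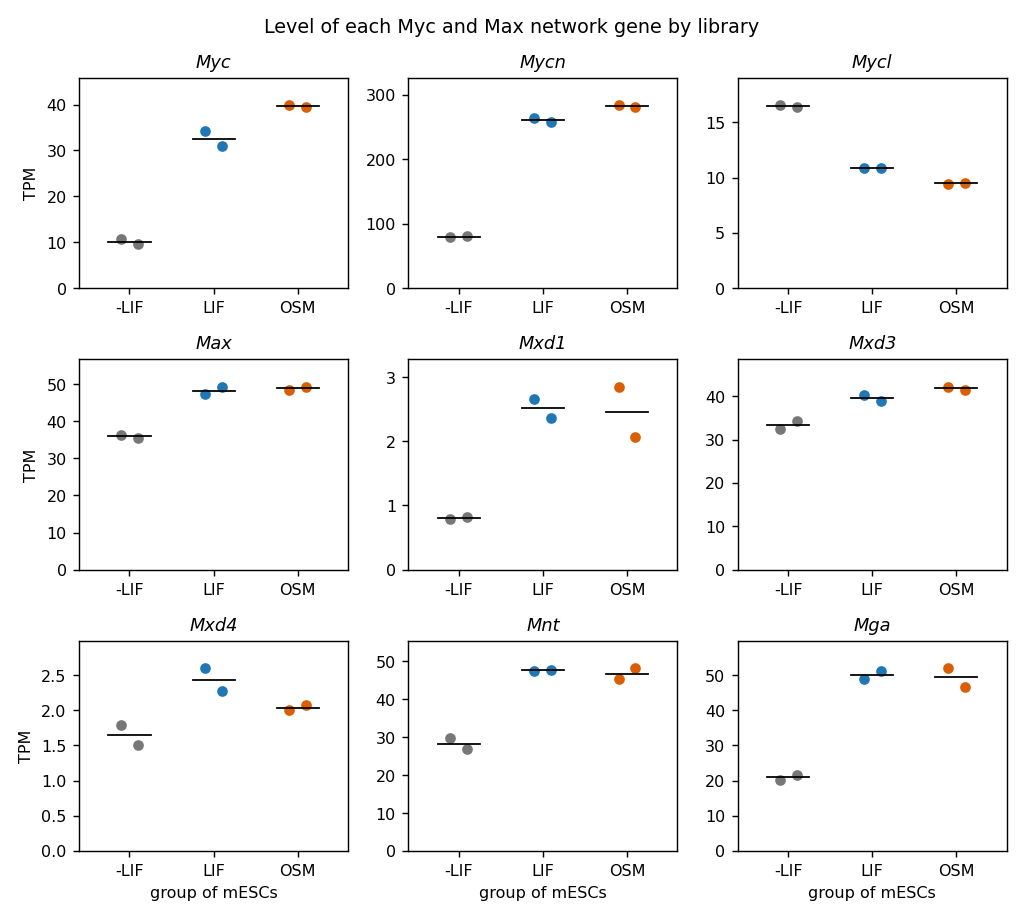
TPM of each of the 9 genes (vertical axis, linear and starting at 0) in the 2 libraries of -LIF-ESCs (grey), LIF-ESCs (blue) and OSM-ESCs (orange), with the group mean as a line. Mycl alone is lower in the LIF and OSM libraries, at 9.44 to 10.8 TPM against 16.4 and 16.5 TPM.

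Mycn, which encodes N-Myc, had the highest level of the 9 genes in every library. It was at 78.9 and 80.5 TPM without cytokine, 264 and 257 TPM with LIF and 283 and 281 TPM with OSM. The libraries of the 3 groups did not overlap, and the -LIF-ESC libraries stood far below the others. The mean of 260.6 ± 4.74 TPM (SD, n = 2) with LIF was 3.27 times the 79.7 ± 1.12 TPM of -LIF-ESCs, and 1.70 higher on the log2(TPM + 1) scale used for every log2 fold change here (standard error, SE, 0.03, limma adjusted p = 3.44e-06). The OSM-ESC mean was 282 ± 1.80 TPM, higher than without cytokine by 1.81 on the log2 scale (SE 0.03, limma adjusted p = 2.78e-06). These values rest on 2469 to 11226 recovered reads per library. The gene lies on chromosome 12 of GRCm38 from 12936093 to 12941914.

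Myc, the gene of c-Myc on chromosome 15 from 61985391 to 61990374, was much less abundant than Mycn and rose as well. Its level was 10.6 and 9.61 TPM without cytokine, 34.1 and 30.9 TPM with LIF and 39.8 and 39.4 TPM with OSM. Again the 3 groups did not overlap, and the OSM libraries were the highest. The group means were 10.1 ± 0.720, 32.5 ± 2.27 and 39.6 ± 0.284 TPM (SD, n = 2). Against -LIF-ESCs the log2 fold change was 1.59 with LIF (SE 0.07, limma adjusted p = 3.28e-05) and 1.87 with OSM (SE 0.07, limma adjusted p = 2.00e-05). Myc had 243 and 327 recovered reads in the -LIF-ESC libraries and 758 to 1299 in the others.

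Mycl, which encodes L-Myc, went the other way. It was at 16.5 and 16.4 TPM without cytokine, 10.8 and 10.8 TPM with LIF and 9.44 and 9.53 TPM with OSM. The -LIF-ESC libraries were the highest, and no groups overlapped. Its log2 fold change was -0.56 with LIF (SE 0.05, limma adjusted p = 0.000383) and -0.74 with OSM (SE 0.05, limma adjusted p = 0.000140). After rescaling these were -0.72 and -0.91. Read counting alone gave the ratios before rescaling errors of 0.064 and 0.063 (log2), above the limma SE of 0.053. The limma SE is therefore smaller than read counting alone would give, and the adjusted p of Mycl rests on it. Mycl lies on chromosome 4 from 122995652 to 123002485, and its values rest on 385 to 756 reads per library.

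Summed over the 3 genes, the Myc family was at 106 and 107 TPM in the -LIF-ESC libraries, 309 and 299 TPM in the LIF-ESC libraries and 333 and 330 TPM in the OSM-ESC libraries. Mycn made up most of this sum, with 75.0% ± 0.842 (SD, n = 2) without cytokine, 85.7% ± 0.413 with LIF and 85.2% ± 0.0251 with OSM. The share of Myc was 9.52% ± 0.704, 10.7% ± 0.499 and 12.0% ± 0.0131. The share of Mycl was 15.5% ± 0.138, 3.57% ± 0.0869 and 2.86% ± 0.0382, so that Mycl stood above Myc without cytokine and below it in the other groups.

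Max, the shared partner of the other proteins, had smaller differences between groups than Myc and Mycn. It was at 36.4 and 35.7 TPM without cytokine, 47.3 and 49.4 TPM with LIF and 48.6 and 49.3 TPM with OSM. The -LIF-ESC libraries were lower than all others, and those of LIF-ESCs and OSM-ESCs overlapped. The log2 fold change was 0.41 with LIF (SE 0.04, limma adjusted p = 0.000505) and 0.43 with OSM (adjusted p = 0.000424), and after rescaling it was 0.24 (adjusted p = 0.00458) and 0.25 (adjusted p = 0.00419). Max lies on chromosome 12 from 76937269 to 76962201.

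Mnt, the most widely expressed of the repressor partners, rose in both groups. Its level was 29.6 and 26.7 TPM without cytokine, 47.3 and 47.8 TPM with LIF and 45.2 and 48.2 TPM with OSM. The 2 cytokine groups overlapped and both stood clear of -LIF-ESCs. The log2 fold changes were 0.74 (SE 0.06, limma adjusted p = 0.000278) and 0.71 (SE 0.06, adjusted p = 0.000315). Mnt lies on chromosome 11 from 74830920 to 74845725.

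Of the Mxd genes, whose proteins take Max away from Myc and are known from cells leaving the cell cycle, only Mxd3 was expressed at a level near that of Max. Mxd3, which is known for a peak in S phase, was at 32.4 and 34.2 TPM without cytokine, 40.3 and 38.9 TPM with LIF and 42.2 and 41.4 TPM with OSM. The groups did not overlap, but the differences were small, with log2 fold changes of 0.24 with LIF (limma adjusted p = 0.00594) and 0.32 with OSM (adjusted p = 0.00204). After rescaling the value with LIF was 0.07 (adjusted p = 0.193), so this rise was lost, and that with OSM was 0.14 (adjusted p = 0.0390). Read counting alone gave the ratios before rescaling errors of 0.050 with LIF and 0.047 with OSM (log2), beside a limma SE of 0.047. A stretch of 105 exon bases of Mxd3 (4.43%) is also annotated on the other strand as Prelid1. Mxd3 lies on chromosome 13 from 55325168 to 55329823.

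Mxd1 and Mxd4 were the least abundant genes of the network. Mxd1, on chromosome 6 from 86647042 to 86669161, was at 0.787 and 0.821 TPM without cytokine, 2.67 and 2.37 TPM with LIF and 2.86 and 2.08 TPM with OSM. The ratio of its mean TPM to that of -LIF-ESCs was 3.13 with LIF and 3.07 with OSM, beside 3.21 and 3.91 for Myc. On the log2(TPM + 1) scale, which understates changes at such levels, its log2 fold change was 0.96 (SE 0.15, limma adjusted p = 0.00269) and 0.93 (adjusted p = 0.00302), and with a pseudocount of 0.1 it was 1.53 and 1.49. Mxd1 had 54 and 63 reads in the -LIF-ESC libraries and 151 to 204 in the others. Mxd4, on chromosome 5 from 34173883 to 34187720, was at 1.79 and 1.51 TPM without cytokine, 2.60 and 2.27 TPM with LIF and 2.01 and 2.07 TPM with OSM. Its log2 fold change was 0.38 with LIF (limma adjusted p = 0.0367) and 0.20 with OSM (adjusted p = 0.193). Of its exon bases 6.06% are also annotated on the opposite strand as Gm42846, which was at 5.67 and 4.60 TPM without cytokine, 9.33 and 9.27 TPM with LIF and 5.78 and 8.18 TPM with OSM. The call of Mxd4 with LIF did not last, since the adjusted p was 0.0526 to 0.185 under 10 alternative settings, among them each of the 6 libraries left out.

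Mga, the largest protein of the network, which joins a T-box to the Max-binding domain, rose more than any other repressor partner at more than 3 TPM. It was at 20.1 and 21.7 TPM without cytokine, 48.9 and 51.2 TPM with LIF and 52.0 and 46.6 TPM with OSM. The cytokine groups overlapped and stood above -LIF-ESCs in every library. The log2 fold change was 1.22 (SE 0.07, limma adjusted p = 6.80e-05) with LIF and 1.20 (SE 0.07, adjusted p = 7.05e-05) with OSM, and 1.05 and 1.02 after rescaling. Its values rest on 3097 to 8678 reads per library. It lies on chromosome 2 from 119897228 to 119969581.

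**Figure D2:**
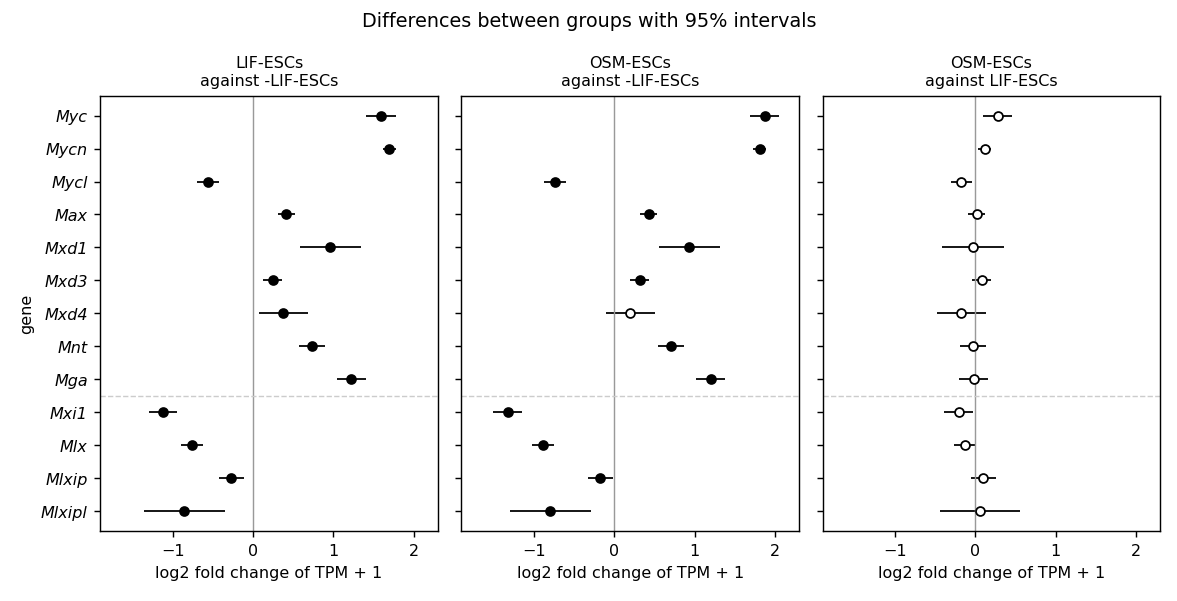
Log2 fold change on the log2(TPM + 1) scale (horizontal axis) of the 9 genes and, below the dashed line, of Mxi1, Mlx, Mlxip and Mlxipl, for the 3 comparisons. Bars are 95% intervals of the limma fit, filled points have an adjusted p under 0.05, and in the right panel, OSM-ESCs against LIF-ESCs, no point is filled.

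The order of the levels changed between groups. Without cytokine it was Mycn, Max, Mxd3, Mnt, Mga, Mycl, Myc, Mxd4 and Mxd1, from 79.7 down to 0.804 TPM, with no overlap between neighbours. With LIF Mycn was followed by Mga, Max and Mnt, at means of 50.1, 48.3 and 47.6 TPM whose libraries overlapped from each to the next, then by Mxd3, Myc and Mycl, and by Mxd1 and Mxd4, which overlapped. With OSM the order was the same, and of neighbours in it only Mga and Max overlapped. Mga (52.0 and 46.6 TPM) also overlapped with Mnt (45.2 and 48.2 TPM), which was not its neighbour. Mga thus moved from the fifth place to a level like that of Max.

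Set against Max, the Myc family was at 2.91 and 2.99 TPM per TPM of Max without cytokine, 6.53 and 6.05 with LIF and 6.85 and 6.69 with OSM. For the sum of Mxd1, Mxd3, Mxd4, Mnt and Mga this ratio was 2.33 and 2.38, then 3.00 and 2.89, then 2.97 and 2.85. Mxi1, another partner of Max, is left out of this sum. It fell from 16.5 and 16.5 TPM without cytokine to 7.40 and 6.75 with LIF and 6.13 and 5.85 with OSM. With Mxi1 included, the rise of this ratio would be smaller. Ratios within a library do not depend on how libraries are scaled. The Myc family was 1.25 times the same sum, without Mxi1, in both -LIF-ESC libraries. It was 2.18 and 2.10 times that sum with LIF and 2.31 and 2.35 times it with OSM. These are ratios of RNA, and protein amounts and dimers were not measured.

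**Figure D3:**
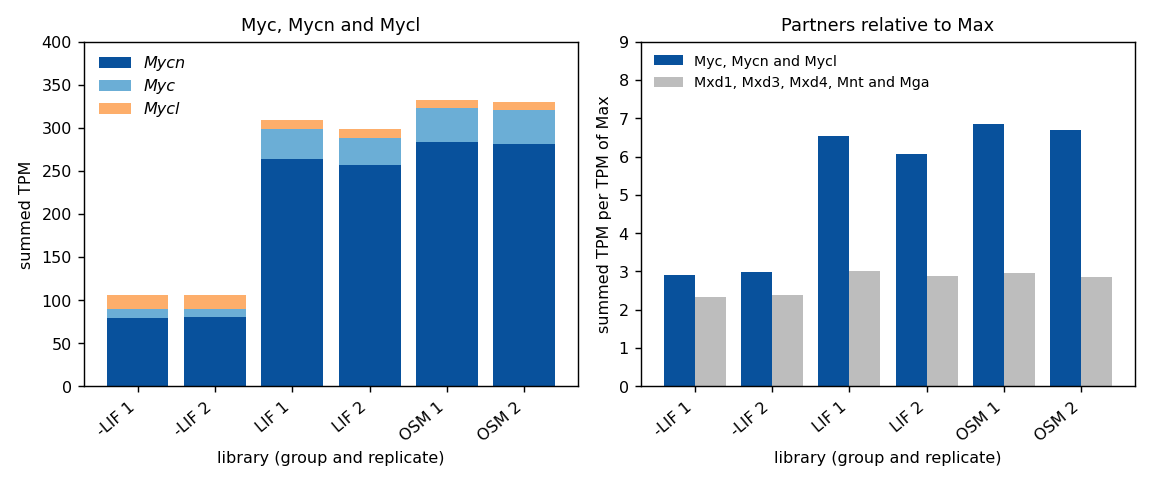
Left, TPM of Mycn, Myc and Mycl stacked for each of the 6 libraries. Right, summed TPM of the Myc family (blue) and of Mxd1, Mxd3, Mxd4, Mnt and Mga (grey) divided by the TPM of Max in the same library, where the blue bars go from 2.91 and 2.99 without cytokine to between 6.05 and 6.85 in the other groups.

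The genes that complete the network all fell in both groups, 4 of 4 in each. Of all genes tested, 25.9% fell with LIF and 25.4% with OSM. Mxi1, the remaining member of the Mxd family, was at 16.5 and 16.5 TPM without cytokine, 7.40 and 6.75 TPM with LIF and 6.13 and 5.85 TPM with OSM. Its log2 fold change was -1.12 (SE 0.07, limma adjusted p = 9.21e-05) and -1.32 (adjusted p = 5.13e-05). A stretch of 2.84% of its exon bases lies opposite to Gm10197, which was at 92.7 and 112 TPM without cytokine and 30.4 to 45.2 TPM in the other libraries. Mlx, the Max-like partner of the sugar sensors, was at 46.7 and 49.5, then 27.3 and 28.9, then 26.1 and 25.1 TPM, with log2 fold changes of -0.75 and -0.89. Of its exon bases 19.3% are also annotated on the opposite strand as Psmc3ip, which was at 52.2 and 47.6 TPM without cytokine and 28.2 to 32.6 TPM in the other libraries. The library kit named in the labels is not described as keeping strand, so reads from this stretch cannot be told apart.

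Mlxip (MondoA) and Mlxipl (ChREBP) encode the glucose-responsive partners of Mlx. Mlxip was at 12.2 and 11.6 TPM without cytokine, 9.87 and 9.53 TPM with LIF and 10.6 and 10.3 TPM with OSM, with log2 fold changes of -0.27 (limma adjusted p = 0.0105) and -0.17 (adjusted p = 0.0482). Mlxipl was low, at 2.41 and 3.30 TPM without cytokine, 1.14 and 1.10 TPM with LIF and 1.55 and 0.908 TPM with OSM, with log2 fold changes of -0.85 (adjusted p = 0.0120) and -0.79 (adjusted p = 0.0156). After rescaling, all 4 genes were lower by more, with log2 fold changes between -0.35 and -1.49. The median of the 4 log2 fold changes was -0.80 with LIF and -0.84 with OSM before rescaling, and -0.95 and -0.99 after it.

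Between OSM-ESCs and LIF-ESCs directly, 0 of the 9 genes had an adjusted p under 0.05 in limma, against 0.593% of all genes tested. An unadjusted p under 0.05 was reached by Myc and Mycn, which were higher with OSM, and by Mycl, which was lower, while 9.8% of all genes were higher and 5.5% lower at that limit. Myc had a log2 fold change of 0.28 (95% interval 0.10 to 0.46, unadjusted p = 0.0105, limma adjusted p = 0.184). Read counting alone gave that ratio an error of 0.05 (log2). For Mycn the log2 fold change was 0.11 (0.03 to 0.19, adjusted p = 0.199), and for Mycl -0.17 (-0.31 to -0.04, adjusted p = 0.229). For Mycl read counting alone gave an error of 0.07, above the limma SE of 0.05. The interval of Mycl is therefore narrower than read counting alone would give. The OSM and LIF libraries of Myc, Mycn and Mycl did not overlap. Those of Mxd3 and Mxd4 did not overlap either, at an unadjusted p of 0.158 and 0.199 in limma. How many of all genes tested did not overlap was not counted, so this is not read as a result about these genes. With 2 libraries a group, an exact permutation test cannot give a two-sided p under 0.333. With limma's voom on recovered reads, an alternative chosen after seeing the data, Myc and Mycn passed the test, with log2 fold changes of 0.29 (adjusted p = 0.00739) and 0.12 (adjusted p = 0.0205), but so did 7.85% of the genes tested in that fit. No other setting gave either gene an adjusted p under 0.05, but in 7 of these settings no gene at all passed.

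The interval of the difference between OSM-ESCs and LIF-ESCs was -0.09 to 0.12 for Max, -0.19 to 0.13 for Mnt, -0.20 to 0.16 for Mga and -0.04 to 0.20 for Mxd3 on the log2 scale. For the low genes it was wider, -0.41 to 0.35 for Mxd1 and -0.48 to 0.13 for Mxd4. Of the completing genes, Mxi1 was at -0.21 (adjusted p = 0.271) and Mlx at -0.13 (adjusted p = 0.346).

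Genes of the pathway around the network were counted in lists, and a list is read only against all genes tested. Of these, 42.2% rose and 25.9% fell with LIF, and 42.9% rose and 25.4% fell with OSM. After rescaling, 6391 of 18571 genes rose and 6171 fell with LIF, and 6374 rose and 6165 fell with OSM. Upstream, all 8 genes of LIF and OSM signalling rose in both groups, with a median log2 fold change of 1.17 with LIF and 1.12 with OSM. Klf4, a Stat3 target, was at 50.5 ± 1.07 TPM (SD, n = 2) without cytokine, 359 ± 2.82 TPM with LIF and 326 ± 0.783 TPM with OSM. Osmr, a receptor subunit that OSM can use with gp130, was at 0.141 ± 0.0138, 6.17 ± 0.146 and 7.56 ± 0.366 TPM. It met the minimum of 1 TPM only in the LIF and OSM libraries. Like Mxd1, it could hardly have been tested without being higher there. Socs3, the Stat3-induced feedback inhibitor, was the only gene of this list to differ between OSM-ESCs and LIF-ESCs, at 54.1 and 50.6 TPM against 78.9 and 77.2 TPM (log2 fold change -0.57, limma adjusted p = 0.0300). This call was lost under 9 alternatives (2 groups fitted alone, no trend, the replicate block and each left-out library), where the adjusted p was 0.0619 to 0.242 and the log2 fold change -0.62 to -0.52. In 7 of those 9, limma called 0 genes in the whole table at an adjusted p under 0.05, although 1969 to 2582 had an unadjusted p under 0.05, and with voom 1446 passed, Socs3 and Ccnd2 among them.

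Among 10 cofactors of Myc, 2 rose and 4 fell with LIF, and 5 rose and 4 fell with OSM, while after rescaling 2 rose and 6 fell with LIF and 0 rose and 4 fell with OSM. Kat5, an acetyltransferase of the complex around Trrap, had log2 fold changes of 0.36 and 0.28, and Wdr5, which helps Myc onto chromatin, of 0.30 and 0.19. Kat2a and Actl6a had values of -0.28 and -0.20 with LIF and -0.38 and -0.23 with OSM. Of 10 genes for the turnover of Myc protein, 5 rose and 2 fell with LIF and 6 rose and 3 fell with OSM, and after rescaling 4 rose and 3 fell with LIF and 3 rose and 3 fell with OSM. Usp36 (0.72 and 0.85), which removes ubiquitin from Myc, and Huwe1 (0.61 and 0.74), a ubiquitin ligase, were the highest of this list, while Ppp2r5a (-0.40 and -0.55) and Aurka (-0.16 and -0.23) fell.

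On the repressor side, 5 of 10 genes of the Sin3 and Hdac corepressor rose and 3 fell with LIF, and 5 rose and 4 fell with OSM. After rescaling 4 were higher and 5 lower in both. Over all genes past the test, the share that was higher also went down, to 50.9% with LIF and 50.8% with OSM. Hdac1, the deacetylase that Mxd proteins recruit through Sin3, went from 106 ± 4.24 TPM (SD, n = 2) without cytokine to 222 ± 3.63 and 229.5 ± 7.11 TPM, and Rbbp4 had log2 fold changes of 0.59 and 0.57. Sin3b, at -0.58 and -0.48, and Rbbp7, at -0.25 in both, were lower. Of 10 partners of Mga in PRC1.6, 4 rose and 1 fell in each group, and after rescaling 4 rose in each while 2 fell with LIF and 3 with OSM. Rybp had log2 fold changes of 1.27 and 1.28, and Cbx1 of 0.93 and 0.89, while Yaf2, the homolog of Rybp, fell, at -0.74 and -0.56.

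Germline and meiotic genes known to be silenced by this complex were mixed. Of 15 tested, 5 rose and 8 fell with LIF, and 4 rose and 8 fell with OSM, with a median log2 fold change of -0.47 and -0.65. Smc1b, a meiotic cohesin, was at 14.2 ± 0.0606 TPM (SD, n = 2) without cytokine, 3.59 ± 0.346 TPM with LIF and 2.27 ± 0.528 TPM with OSM, and Dazl, a germ cell RNA-binding protein, was at 13.0 ± 0.102, 3.31 ± 0.170 and 2.50 ± 0.542 TPM. Taf7l and Stra8 had log2 fold changes of 1.30 and 1.20 with LIF and 1.08 and 0.81 with OSM.

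Known targets of Myc did not move as a block. Of 20 genes for the nucleolus and ribosome assembly, 12 rose and 4 fell with LIF and 13 rose and 5 fell with OSM, but after rescaling 7 rose and 6 fell with LIF and 8 rose and 6 fell with OSM. Nop56 (log2 fold changes 1.22 and 1.27) and Nop58 (1.11 and 1.07), both of the box C/D snoRNP, rose, and Pes1 (-0.61 and -0.59) and Mybbp1a (-0.54 and -0.53) fell. Of 24 genes for metabolism and growth, 7 rose and 14 fell in both groups, with a median of -0.21 and -0.17. The amino acid transporter gene Slc7a5 went from 116 ± 1.95 TPM (SD, n = 2) without cytokine to 397 ± 4.72 and 378 ± 0.694 TPM, and the serine and glycine enzyme gene Shmt2 from 83.3 ± 2.54 to 251 ± 1.98 and 242 ± 6.37 TPM. Ldha, the lactate dehydrogenase of glycolysis, fell from 1013 ± 8.13 TPM to 348 ± 3.06 and 345 ± 1.73 TPM, and Phb had log2 fold changes of -1.23 and -1.21.

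Of 10 cell cycle targets, 5 rose and 3 fell with LIF, and 4 rose and 3 fell with OSM. After rescaling 4 were higher and 5 lower with LIF, and 3 higher and 5 lower with OSM. Ccnd2, which encodes cyclin D2, was at 7.63 and 7.79 TPM without cytokine, 26.3 and 25.6 TPM with LIF and 37.7 and 36.5 TPM with OSM. Its log2 fold change was 1.63 and 2.13, and it was the only gene of this list to differ between OSM-ESCs and LIF-ESCs, with 0.50 (limma adjusted p = 0.0358). As for Socs3, this call was lost under 9 alternatives, with an adjusted p of 0.0691 to 0.245 and a log2 fold change of 0.48 to 0.52. Cdk4 rose (0.76 and 0.80), and Id2 (-1.16 and -1.14) and Tert (-0.36 and -0.38) fell. Of 8 genes known to be repressed by Myc, 4 rose and 3 fell with LIF and 5 rose and 3 fell with OSM. Gadd45a (2.11 in both) and Cdkn2b (1.25 and 1.73) rose, and Ndrg2 (-2.44 and -2.54) and Ndrg1 (-1.47 and -1.75) fell.

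**Figure D4:**
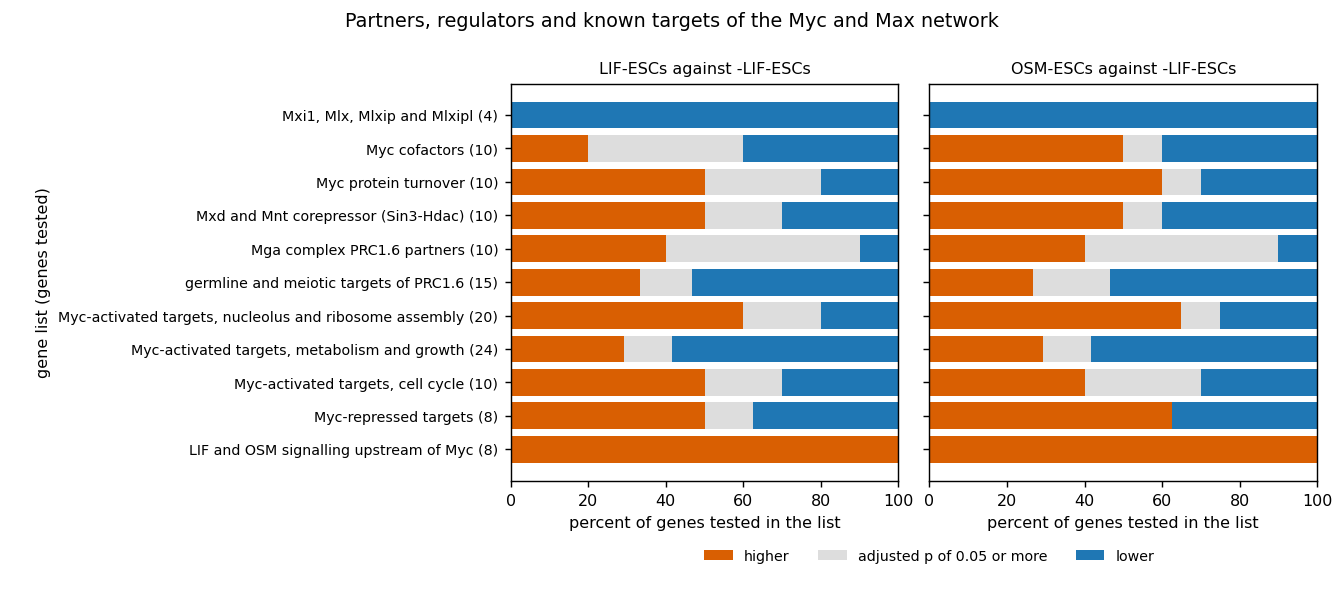
Percent of the genes tested in each of 11 lists that were higher (orange), lower (blue) or had an adjusted p of 0.05 or more (grey), for LIF-ESCs and OSM-ESCs against -LIF-ESCs, with the number of genes tested in brackets. The list of Mxi1, Mlx, Mlxip and Mlxipl is all lower and that of LIF and OSM signalling all higher, while the 3 lists of genes activated by Myc hold both.

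In the marker lists, 14 of 15 fibroblast markers rose and 1 fell in both groups, with Fbln2 (5.39 and 5.83) and Col3a1 (3.59 and 3.99) rising and Col5a1 (-0.82 and -0.24) falling, and 4 (Col1a1, Col1a2, Col5a1 and Fbln2) were higher in OSM-ESCs against LIF-ESCs, a call that each of them lost under the same 9 alternatives as Socs3. Of 10 embryonic stem cell markers 8 rose, Tfcp2l1 (1.80 and 1.78) and Esrrb (1.43 and 1.19) by the most with LIF, and Nanog fell, from 433 ± 3.60 TPM (SD, n = 2) to 289.9 ± 0.838 and 261 ± 13.2 TPM. All 8 surface ectoderm and trophoblast markers tested fell, Krt19 (-7.66 and -7.05) and Krt8 (-6.16 and -5.68) by the most with LIF. Of 8 primitive endoderm markers tested 8 rose with LIF and 6 with OSM (Lama1 2.81 and 2.00, Sox7 2.26 and 1.45). Of 7 mesoderm and primitive streak markers 1 rose, Foxf1 (0.93 and 1.39), and 5 fell in both groups, with T (-5.13 and -5.01) and Hand1 (-4.34 and -4.65) lowest with LIF. Of 7 neural markers 4 rose and 3 fell with LIF and 4 rose and 2 fell with OSM. Sox1 (1.68 and 1.49) and Pax6 (1.50 and 1.57) rose, and Otx2 (-1.35 and -1.40) and Nes (-1.26 and -0.84) fell. Col3a1, Sox7, Foxf1, Sox1 and Pax6 were under 1 TPM without cytokine, and Hand1 was so with LIF and OSM. They met the minimum only where they were high, so their directions in these counts were nearly fixed. Nes was also higher in OSM-ESCs against LIF-ESCs (0.41, limma adjusted p = 0.0492), which 11 alternatives did not keep.

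Profiles over the 6 libraries were compared by the distance between log2(TPM + 1) values, each centred on its own mean, as a description only. Among the profiles most like that of Mycn were those of Gpa33 (distance 0.08) and Slc7a7 (0.08). Gpa33 was at means of 31.6, 105 and 109 TPM without cytokine, with LIF and with OSM, and Slc7a7 at 30.6, 102 and 109 TPM. Nearest to Myc were Samd5 (0.10), Synpo (0.12) and Irf9 (0.13), of which Irf9, a subunit of the interferon-activated ISGF3 factor, was at 6.02, 20.9 and 24.1 TPM. Nearest to Mycl were Gm15441 (0.05), Ube2o (0.06) and Kazn (0.07). Gm15441 was at 743, 489 and 439 TPM, and 36.2% of its exon bases lie opposite to Txnip. Whether reads from this stretch came from Txnip was not tested.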

How the data were processed

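The authors mapped reads with HISAT2 to mm10, assigned them to genes with featureCounts, and deposited the levels as TPM. Trimmomatic is named in the submitters' processing notes. The annotation, the strand setting and the step from counts to TPM are not given in the sources used here.

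Values were taken as log2(TPM + 1). Genes reaching 1 TPM in 2 or more libraries (18556) entered a limma 3.58.1 fit (R 4.3.3, eBayes with its trend option) of all 3 groups, which left 3 residual degrees of freedom. Benjamini-Hochberg adjustment covered every gene tested. The study itself used DESeq2 on counts, which was not done here. Reads were recovered from TPM and GENCODE M21 exon lengths (94.5% to 94.7% of values above 0 in a library were whole within 0.02 of a read). As an alternative, limma's voom was run on these reads, a choice made after seeing the data. Median-ratio rescaling, leaving out each library, a replicate block, a pseudocount of 0.1, no filter or one of 5 TPM, no eBayes trend and fitting 2 groups alone were the others. The steps were tested on simulated data. Python 3.11.15 was used for tables and plots.

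The 9 genes and all gene lists were chosen with earlier results of these data known. The lists came from general knowledge. Named are all 9 genes and Mxi1, Mlx, Mlxip and Mlxipl. From every other list, the text names up to 2 genes with the highest and 2 with the lowest log2 fold change of LIF-ESCs against -LIF-ESCs, and for Myc, Mycn and Mycl the 3 genes with the most alike profiles. Genes of a list that passed between OSM-ESCs and LIF-ESCs, such as Socs3, are named in addition, after their values were seen. A gene that the likeness rule gave for Mycn is not reported here.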

Additional observations from a re-analysis of the deposited data

How the results depend on the processing

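In the main fit against -LIF-ESCs, 42.2% of all genes tested rose and 25.9% fell with LIF, and 42.9% and 25.4% with OSM. Such shares were counted for no alternative except rescaling. The counts here are therefore not read as particular to the 9 genes. These 9 genes were counted against -LIF-ESCs under every alternative run, a filter of 5 TPM leaving 7 to test. The number past an adjusted p of 0.05 was 7 to 9 with LIF and 7 or 8 with OSM. With each library left out, where the lone library of its group is assumed to vary like the other groups, it was 8 in both. Between OSM-ESCs and LIF-ESCs it was 0, where only 0 to 2 of all genes tested passed in limma (1969 to 2582 at an unadjusted p under 0.05), so that count says nothing about these genes. Myc and Mycn, 2 of the 9 genes, passed between OSM-ESCs and LIF-ESCs only with voom on recovered reads. Mycn, Myc, Mycl, Max, Mnt, Mga and Mxd1 kept their direction and an adjusted p under 0.05 against -LIF-ESCs wherever they were tested. Mxd3 in LIF-ESCs was lost after rescaling and with voom, where its log2 fold change was 0.12 (adjusted p = 0.115).

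No pairing by replicate number was seen, as the differences between replicates 1 and 2 correlated at -0.04 to 0.03 across genes between groups. Such a check cannot show that the replicates were not prepared as sets. With the replicate block the counts were 8, 8 and 0 of the 9 genes, and the block ended the call of Mxd4 in LIF-ESCs (adjusted p = 0.0526).

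Between OSM-ESCs and LIF-ESCs, differences near 0 changed sign when a library was left out. On the log2 scale, Max ranged from -0.013 (without LIF-ESCs replicate 1) to 0.049, Mxd1 from -0.19 to 0.13 (without OSM-ESCs replicate 2, and 0.032 without LIF-ESCs replicate 1), Mnt from -0.070 to 0.018 (without OSM-ESCs replicate 1) and Mga from -0.10 to 0.054 (without OSM-ESCs replicate 2, and 0.0084 without LIF-ESCs replicate 2). The cause was not tested.

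With 2 libraries a group, an exact permutation test has 0.333 as its smallest two-sided p, and every p here depends on the limma model. The rise of all genes against -LIF-ESCs depended on the scaling, as 61.9% of the genes past an adjusted p of 0.05 were higher in LIF-ESCs before rescaling and 50.9% after it, and 62.8% and 50.8% in OSM-ESCs. Depth limits Mxd1, Mxd4 and Mlxipl the most.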

Other observations

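Txnip and Arrdc4, which are known targets of Mlxip and Mlxipl with Mlx, were looked up after the overlap of Gm15441 with Txnip had been seen. They went in opposite directions. Txnip was at 1017 and 1053 TPM in -LIF-ESCs, 672 and 654 TPM in LIF-ESCs and 573 and 559 TPM in OSM-ESCs, with log2 fold changes of -0.64 (standard error 0.03, adjusted p = 5.19e-05 in limma) and -0.87 (adjusted p = 2.07e-05). Arrdc4 was at 58.4 and 58.5 TPM in -LIF-ESCs, 121 and 119 TPM in LIF-ESCs and 122 and 121 TPM in OSM-ESCs, with log2 fold changes of 1.02 (standard error 0.03, adjusted p = 1.09e-05 in limma) and 1.04 (adjusted p = 9.90e-06). Both directions were the same after rescaling, at -0.82 and -1.06 for Txnip and 0.85 and 0.86 for Arrdc4.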
